A study of Mus musculus with 19 samples.

Results

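TEAD binding to liver chromatin was compared between 7 and 3 days of YAP induction, at the genomic sites that held a TEAD peak at both times. Chromatin immunoprecipitation followed by sequencing (ChIP-seq) gave 1 list of 36446 TEAD peaks at 3 days, merged from 3 libraries, and 1 list of 38984 at 7 days, merged from 4, that is 7 of the 19 samples of the series. Peaks of the lists that overlapped by at least 1 bp were joined when each was the other's best overlap, which left 27136 pairs. All mice of both groups were of genotype ROSA26-rtTA-IRES-EGFP; tetYAP on a C57BL/6 background and received doxycycline in the food, for 3 or 7 days. According to the study's methods, an albumin-driven Cre recombinase directs the rtTA activator to hepatocytes, and the transgene encodes YAP S127A, a constitutively active form. The antibody, raised against TEAD4, was described there as also recognising TEAD1 and TEAD3, so the family members cannot be told apart. Whole liver was fixed with formaldehyde, so the remaining liver cells contributed too, and fewer cells with a bound site and less binding per cell cannot be told apart.

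TEAD factors bind DNA and have little transcriptional activity of their own. They recruit the coactivator YAP or TAZ, which the Hippo pathway keeps out of the nucleus, and at many enhancers they sit close to AP-1, the dimer of FOS and JUN proteins. In hepatocytes, active YAP is known for driving growth and a shift towards progenitor and biliary features.

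Each peak was given the percentile of its pileup within its own list, where 100 is the highest. The pileup is the number of sequenced fragments that cover the summit. A pair was called rising when its percentile was at least 20 points higher at 7 days, and falling when it was at least 20 points lower. Because percentiles compare places within a list, they say nothing of binding as a whole. A second measure, relative pileup, was the pileup per sequenced tag at 7 days over that at 3 days, divided by its median over all pairs. That median was 1.33, so the typical pair covered more fragments per tag at 7 days, in lists whose tag totals were 38523843 and 55032002. The replicates of a group had been merged, so no value here has a spread between livers, no test between times was possible, and every interval covers counting error only.

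The sequences at the summits that moved most are shown first, since the later comparison turns on what they hold. Each is read from the plus strand of mm9 with 50 bases on either side of the 7 days summit, and is named by the nearest protein-coding gene. Capitals mark the TEAD motif GGAATG or the AP-1 motif TGANTCA, on either strand. The 4 shown first, 2 of the largest rises and 2 of the largest falls among strongly bound pairs, held no copy of either. These lie at chr8:10921796-10921896 beside 3930402G23Rik, chr8:46692510-46692610 in an intron of Sorbs2, chr7:14894233-14894333 upstream of Sult2a6, and chr8:74827624-74827724 downstream of the start of Gm10282.
3930402G23Rik, rise: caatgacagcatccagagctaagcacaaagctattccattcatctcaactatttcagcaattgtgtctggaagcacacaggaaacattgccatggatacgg
Sorbs2, rise: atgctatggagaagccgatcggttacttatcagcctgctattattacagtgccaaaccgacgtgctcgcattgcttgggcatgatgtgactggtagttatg
Sult2a6, fall: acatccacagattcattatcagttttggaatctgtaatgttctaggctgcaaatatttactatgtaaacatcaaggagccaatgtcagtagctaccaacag
Gm10282, fall: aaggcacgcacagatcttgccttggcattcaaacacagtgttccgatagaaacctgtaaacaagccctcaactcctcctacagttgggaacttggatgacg

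Other named summits did hold a motif, and a few are shown for contrast; they were picked for the match after it was seen. Among rises, the AP-1 motif stood in an intron of Trpm1 at chr7:71394700-71394800 and in an intron of Sfxn1 at chr13:54196541-54196641. The TEAD motif stood upstream of Gabrr2 at chr4:33143455-33143555, upstream of Serpinb6b at chr13:33049951-33050051, and 6236 bp downstream of the Fos start at chr12:86821026-86821126. Riok1, a fall with a TEAD match, lies at chr13:38178810-38178910.
Trpm1, rise: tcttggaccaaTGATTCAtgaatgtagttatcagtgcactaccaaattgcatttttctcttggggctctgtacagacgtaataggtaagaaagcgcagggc
Sfxn1, rise: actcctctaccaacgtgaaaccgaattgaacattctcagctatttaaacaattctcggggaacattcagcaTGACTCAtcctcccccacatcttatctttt
Gabrr2, rise: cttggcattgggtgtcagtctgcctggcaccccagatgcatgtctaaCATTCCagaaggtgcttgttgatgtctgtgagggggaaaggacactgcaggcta
Serpinb6b, rise: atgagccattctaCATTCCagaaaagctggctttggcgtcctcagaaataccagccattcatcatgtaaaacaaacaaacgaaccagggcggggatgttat
Fos, rise: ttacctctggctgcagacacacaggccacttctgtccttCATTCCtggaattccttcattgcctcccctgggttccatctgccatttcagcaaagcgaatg
Riok1, fall: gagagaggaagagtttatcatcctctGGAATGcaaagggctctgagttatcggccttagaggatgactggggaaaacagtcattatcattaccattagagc

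Most sites kept a similar place in the order of TEAD binding between the times. The median change was a drop of 1.53 points, and the middle 50% of pairs lay between -12.7 and 8.26 points. Across the 27136 pairs, Spearman's rho between the percentiles was 0.75, as a description of sites that share the same merged libraries. Of all pairs, 3425 (12.6%) rose and 4279 (15.8%) fell. The excess of falls turned when peaks were ranked among paired peaks only, with 3795 rising and 3690 falling, and was larger with equally long lists, 2930 and 4817. On the relative pileup, 1026 (3.78%) were at least 2-fold higher at 7 days, against 199 (0.733%) at least 2-fold lower.

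Much of the exchange of places in the middle of the lists was within counting error. Moving from the 40th to the 60th percentile took 7 fragments at 3 days, from 33 to 40, and 9 at 7 days, from 30 to 39, while the counting SD of such pileups was 5.48 to 6.32 fragments. Among rising pairs, 42.1% had a 95% interval of relative pileup that lay above 1, and among falling pairs 21.0% had one below 1. Over all pairs these shares were 12% above and 4.43% below, and strongly bound pairs, with narrower intervals, reached 35.6% and 7.45%.

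Among pairs strongly bound at either time, more changes were gains than losses. Among the 4684 pairs in the top 10% of at least 1 list, 342 rose and 64 fell, although for a site already at the top a rise of 20 points is out of reach. A change of at least 40 points was a rise in 145 of them and a fall in 9. The relative pileup, which has no such ceiling, was at least 2-fold higher in 584 (12.5%) and at least 2-fold lower in 28. A pair can enter this set through its 7 days value alone, which favours gains, or its 3 days value alone, which favours losses. In the top 10% of the 3 days list, 4.49% of 890 pairs without a TEAD peak in WT livers were at least 2-fold higher. With such a peak the share was 0.543% of 2763. The highest pileups among pairs were 358 and 354 fragments, under the 414 and 412 that remain possible once duplicate fragments are removed.

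**Figure D1:**
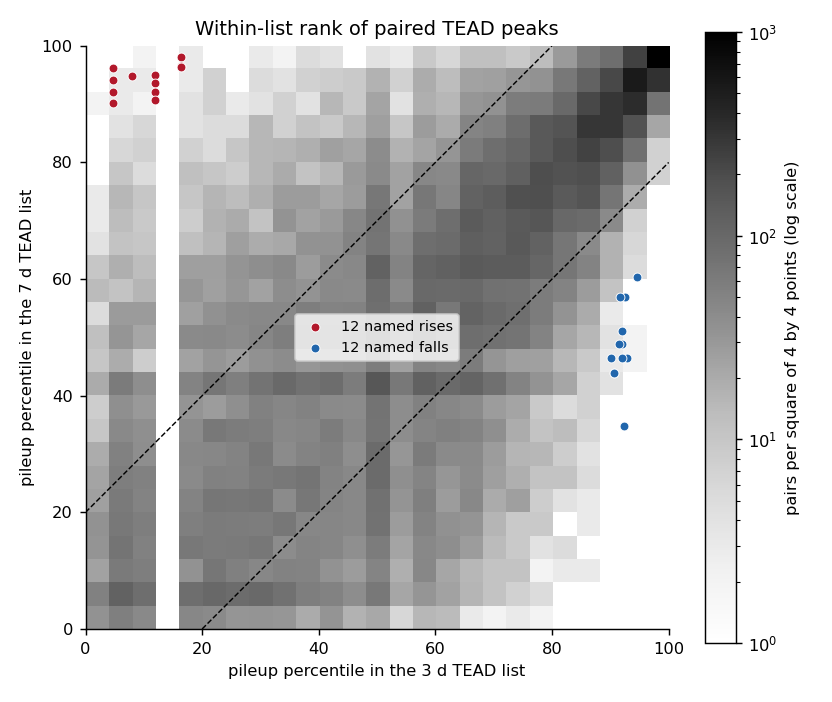
Pileup percentile of each of the 27136 TEAD peak pairs at 3 days (x axis) and 7 days (y axis), with the number of pairs per square in grey on a log scale; dashed lines mark 20 points of change, and white stripes arise because pileups are whole fragments. The 12 named rises started below percentile 17 and ended above 90, while the 12 named falls ended between 34.8 and 60.3.

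The 12 largest rises among strongly bound pairs started from the weakest peaks of the 3 days list, with pileups of 24 to 27, and reached 88 to 162 at 7 days. Their relative pileup was 3.71 to 6.42. The largest was beside 3930402G23Rik, a gene of unassigned function, with 24 fragments at 3 days (percentile 4.70) and 129 at 7 days (percentile 96.1). Its relative pileup of 5.76 had a 95% counting interval of 3.70 to 9.31, and its summit lay 6611 bp downstream of the gene's start, between genes. Nedd9, which encodes a scaffold protein of focal adhesions, had the highest relative pileup of these 12. Its pileup went from 27 to 162 at a summit 323 bp downstream of a transcription start, within an intron, which is a relative pileup of 6.42 (4.26 to 10.05).

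Further rises of this group lay near genes of unlike function. An intron of Sorbs2, which encodes an adaptor of the actin cytoskeleton, went from 24 to 110 fragments. A site near Znfx1, which encodes a zinc finger helicase, went from 25 to 116, and one in an intron of Fgf13, an intracellular fibroblast growth factor homologue on the X chromosome, from 26 to 118. Introns of Trpm1, which encodes a cation channel, and Sfxn1, a mitochondrial serine transporter, went from 27 to 134 and from 26 to 90. Sites near Zfp438, Dsg4, Gabrr2 and Serpinb6b ended at 88 to 131. Of the 12, 6 lay in introns and 6 between genes, 3 overlapped a YAP peak at 7 days, and 1, beside 3930402G23Rik, overlapped a TEAD peak of WT livers without the transgene.

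The 12 largest falls among strongly bound pairs were smaller than these rises and left peaks of middling strength. They had pileups of 79 to 102 at 3 days and 28 to 39 at 7 days, with relative pileups of 0.341 to 0.466. The largest lay 54067 bp upstream of Sult2a6, a member of the hepatic sulfotransferases that act on steroids and bile acids, with 88 fragments at 3 days (percentile 92.3) and 28 at 7 days (percentile 34.8). Its relative pileup was 0.341, with an interval of 0.214 to 0.526. Over all pairs, weakly bound ones included, the largest fall was -77.5 points.

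Further falls, too, lay near genes of unlike function. A site in an intron of Myo1c, which encodes an unconventional myosin, had 91 fragments at 3 days and 32 at 7 days. One in an intron of Camk2b, a calmodulin-dependent kinase, had 87 and then 33, and one in an intron of Zbtb16, a zinc finger repressor, 84 and then 33. One near Ak4, a mitochondrial adenylate kinase, had 87 and then 34. Falls near Sdc3, Gm10282, Mrps23, Lin7a, Riok1 and AA986860 started at 79 to 102 fragments and ended at 31 to 39. Of these 12 falls, 5 overlapped a TEAD peak of WT livers and 0 a YAP peak at 7 days. All 24 named pairs had intervals on their own side of 1, as pairs picked for a large change would.

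**Figure D2:**
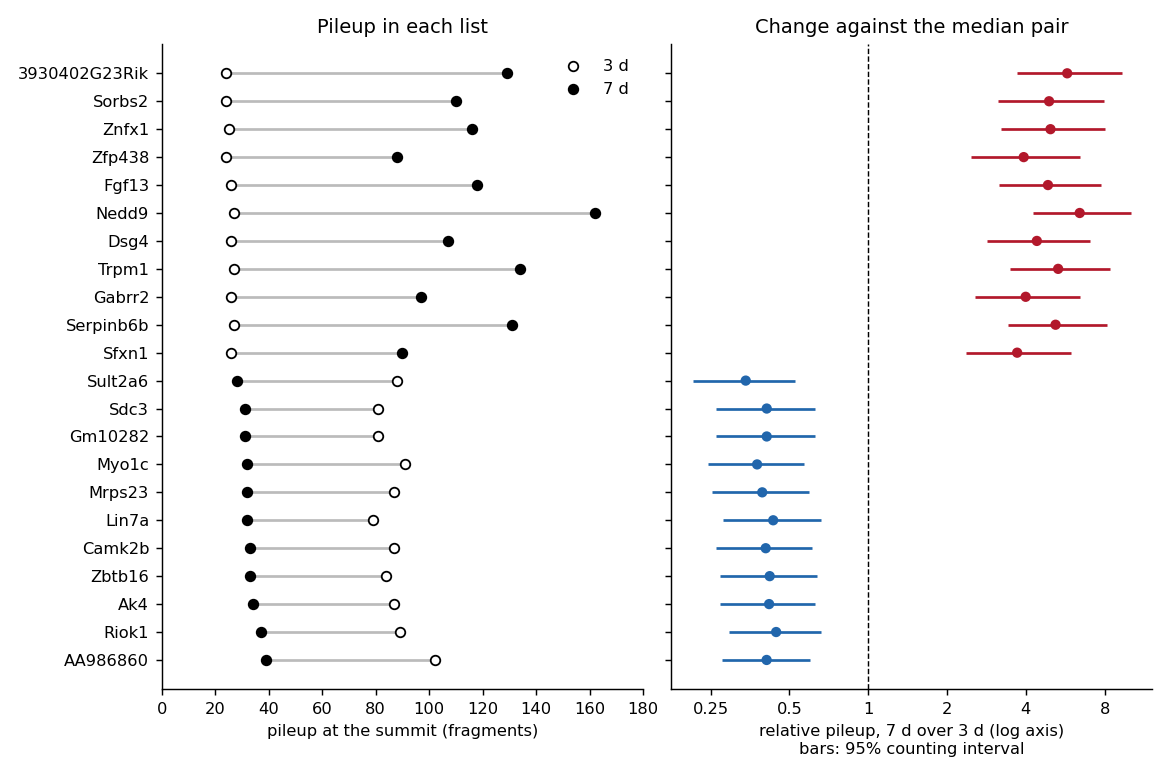
Left, pileup in fragments of 11 of the 12 largest rises and 11 of the 12 largest falls among strongly bound pairs, at 3 days (open) and 7 days (filled), by nearest gene; right, relative pileup on a log axis with 95% counting intervals. Rises (red) run from 3.71 to 6.42 and falls (blue) from 0.341 to 0.445, so the falls lie nearer to 1 on this axis.

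Some genes had several sites that moved the same way. Of 1850 protein-coding genes that were nearest to at least 4 pairs, 41 had at least 3 rising and no falling pair, and 72 had at least 3 falling and no rising pair. Over all pairs 12.6% rose and 15.8% fell, and how many such genes these shares alone would give was not computed. Tpcn2, which encodes a lysosomal cation channel, had the highest median change, 53.4 points over 4 pairs. Its sites 41685 to 52071 bp downstream went from 30 to 106, from 27 to 53 and from 32 to 72 fragments, while the site at its start went from 44 to 34. Adamtsl1, which encodes a secreted matrix protein, had 4 rising pairs of 6, led by an intronic site with 24 and then 57 fragments.

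Ext1, which encodes a glycosyltransferase that builds heparan sulfate, was nearest to 11 pairs, all within its introns. Of these 6 rose and 1 fell, with a median of 29.3 points, and 3 had a counting interval above 1. Cdyl, a chromodomain corepressor, had 3 rising pairs of 4, each with an interval above 1, including 30 and then 65 fragments at 3151 bp from a start. Mast2, a serine/threonine kinase, had 2 rising pairs of 4. Tmem2, a cell surface hyaluronidase, had 3 of 4, but 0 of its 4 pairs had an interval above 1, so its median of 31.3 points lies within counting error.

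The lowest median belonged to Col4a2, which encodes a chain of basement membrane collagen IV. Its 5 pairs moved by a median of -48.2 points, and 4 of them lay in introns of the adjoining Col4a1. The pileups of those 4 sites were 61, 77, 72 and 48 at 3 days and 28, 30, 26 and 28 at 7 days. The fifth, in an intron of Col4a2, had 74 and then 50. Of these 5, 4 overlapped a TEAD peak of WT livers, and 3 had a counting interval below 1. Itga9, which encodes an integrin subunit, had 3 falling pairs of 4, among them 61 and then 23 fragments. Its remaining site went from 78 to 116. Gm5468 had 4 falling pairs of 4, Gm17555 and 2410003K15Rik 3 of 4 each, and BC031353 4 of 6, with 2 intervals below 1 in each of these 4 genes. The 2410003K15Rik falls from 49 to 21 and from 37 to 25 lay in introns of Igf2bp3. A further site there went from 111 to 136. Igf2bp3 is on the biliary and progenitor list below, which does not count these pairs because their nearest start is that of 2410003K15Rik.

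Nedd9, Fos and Hes1, looked at after their values were seen, show how far neighbouring sites of 1 gene differed. Nedd9 was nearest to 9 pairs. The site that went from 27 to 162 lies beside a site 1715 bp from that start, which was near the top of both lists with 226 and then 300 fragments and carried a YAP peak at 7 days, as did the rising site. A further site had 29 and then 58, while 5 of the 9 had intervals that hold 1. Fos, which encodes a core AP-1 subunit, had 6 pairs. The site shown above, with the TEAD letters, went from 43 to 172 fragments, a relative pileup of 4.28 (3.05 to 6.13), and overlapped a YAP peak at 7 days. A site 47889 bp downstream of the Fos start went from 66 to 142, and the Fos start itself from 29 to 38. Hes1, which encodes a Notch-induced repressor used in bile duct formation, had 5 rising and 0 falling pairs of 10. Only 3 of the 10 had an interval above 1, with 45 and then 92, 28 and then 48, and 58 and then 106 fragments, all 4880 to 11980 bp upstream of its start.

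**Figure D3:**
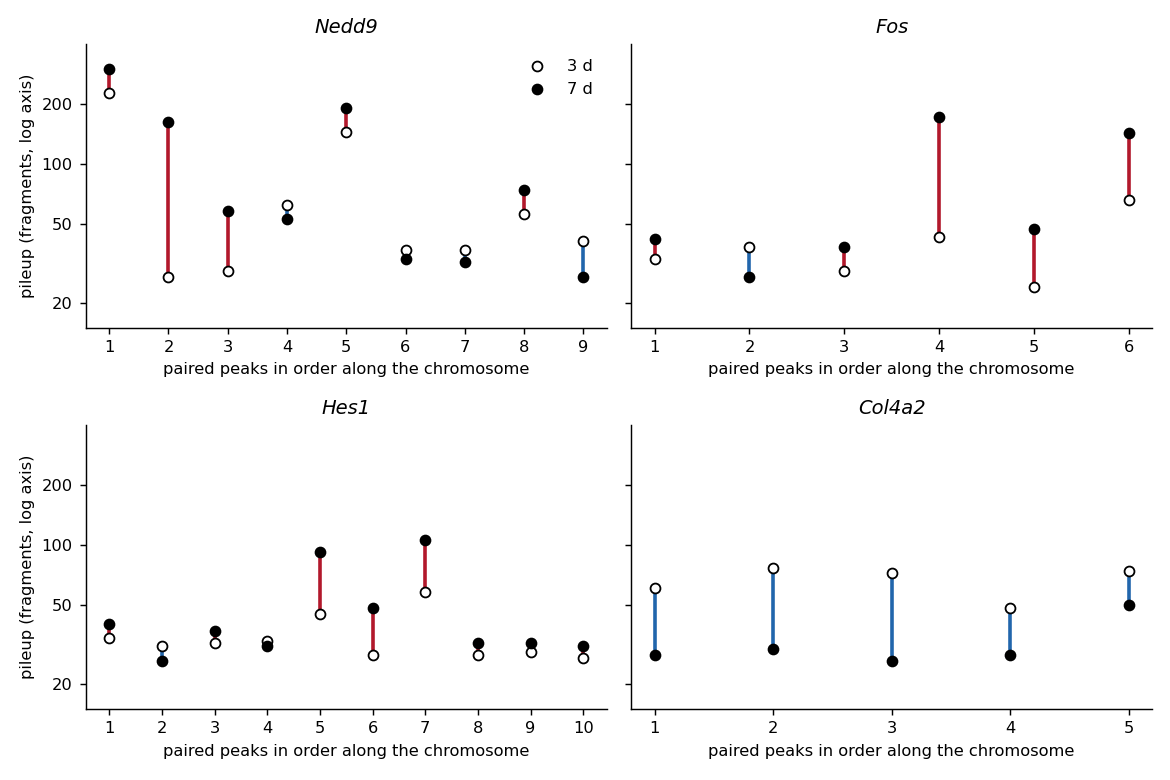
Pileup in fragments (log axis) of the pairs nearest to Nedd9, Fos, Hes1 and Col4a2 at 3 days (open) and 7 days (filled), in order along the chromosome; red lines mark a relative pileup above 1 and blue lines one below 1. At Nedd9 and Fos single sites stand out, with 162 and 172 fragments at 7 days, while all 5 Col4a2 pairs were lower at 7 days.

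Sites near promoters rose less often than sites elsewhere. Promoters were taken as windows from 2000 bp before an annotated start to 1000 bp after it. Of 8841 promoter pairs 9.07% rose and 17.7% fell, and of the 18295 others 14.3% rose and 14.9% fell. The difference in rising share was -5.27 points, with an interval of -6.04 to -4.47. Of the sites elsewhere, those in gene bodies rose in 14.2% and intergenic ones in 14.5%. Promoter windows also differed in base composition, with a median GC content of 54% against 46.5% elsewhere, whose part in the difference was not tested.

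Sites with and without a TEAD peak in WT livers differed in how far they moved. The WT list came from C57BL/6 livers without tetYAP after 7 days of doxycycline food and served only to sort the pairs, since its 5695 peaks were called with a fragment length of 400 bp. Over all pairs the rising share was 1.84% with a WT peak and 15.3% without, a difference of -13.4 points (-14.0 to -12.8), which was -7.37 when pairs of like mean percentile were compared. The falling share was also lower with a WT peak, 9.14% against 17.4%, and the median relative pileup was 1.02 with and 0.995 without. Pairs with a WT peak had a median percentile of 90.4 at 3 days, against 53.8. Among the pairs in the top 10% of the 3 days list, a choice that does not use the 7 days values, 4.49% of 890 without a WT peak were at least 2-fold higher in relative pileup, against 0.543% of 2763 with one. That is a difference of 3.95 points (2.72 to 5.53), with medians of 1.12 and 1.03. In the top 10% of either list the shares were 30.9% of 1701 and 1.98% of 2983, but a pair can enter that set through its 7 days value alone, which favours gains.

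Sites with a YAP peak at 7 days had a higher relative pileup than sites without. The YAP peaks were called at the end of the interval compared, so a site strong in both at 7 days is favoured by this split. Over all pairs the median relative pileup was 1.26 at the 1275 pairs with a YAP peak and 0.991 at the 25861 others, and 18.6% against 3.05% were at least 2-fold higher. Among pairs in the top 10% of the 3 days list, 4.36% of 894 with a YAP peak and 0.580% of 2759 without were at least 2-fold higher, a difference of 3.78 points (2.57 to 5.34). Measured in percentiles over all pairs, the rising share was instead lower at YAP peaks, by 2.05 points (-3.68 to -0.194), 10.7% against 12.7%. The interval of that difference held 0 with ranks among paired peaks, -0.849 (-2.65 to 1.16), and with equally long lists, -0.904 (-2.51 to 0.936). Within deciles of mean percentile, which itself uses the 7 days value, the difference was 28.5 points, with no interval. That exceeds the 10.7% of YAP-bound pairs that rose, so it does not describe YAP-bound pairs as a whole. The median percentile of YAP-bound pairs was already 95.3 at 3 days. Falling pairs were 1.25% of those with a YAP peak and 16.5% of the others.

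The letters around the summits differed between pairs of low and high relative pileup. All pairs on the numbered chromosomes and X were divided into deciles by relative pileup, and motifs were counted on both strands in the 200 bases around the 7 days summit. The TEAD letters GGAATG stood in 30.2% of windows in the lowest decile and 51.9% in the highest, a difference of 21.7 points (19.2 to 24.3). The median 7 days percentile climbed from 23.1 to 87.0 over the same deciles, so strength at 7 days and change cannot be told apart here. In all 7 days peaks they stood in 35.2%. The AP-1 letters TGANTCA went from 5.01% to 13.6%, a difference of 8.60 points (7.07 to 10.1), beside 8.67% of all 7 days peaks. Rising pairs held the TEAD letters in 38.0% and falling pairs in 24.7%, and the AP-1 letters in 11.3% and 5.31%.

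Motifs typical of CpG-rich promoters went the other way. The SP/KLF letters GGGCGG stood in 14.3% of the lowest and 5.35% of the highest decile, and the ETS letters CCGGAAG in 4.68% and 1.07%; in all 7 days peaks they stood in 11.4% and 3.14%. The promoter share fell from 33.5% to 16.2% over the same deciles. The HNF4A letters CAAAGTC, whose factor maintains hepatocyte identity, was in 6.01% and 7.16%, a difference whose interval of -0.176 to 2.47 holds 0, and in 6.31% of all 7 days peaks. The FOXA letters TGTTTAC or TGTTTGC were in 11.3% and 13.4%, and in 12.5% of all 7 days peaks. The CEBP letters, TTGCGCAA or TTGCATCA, were in 1.40% and 2.07%, with 1.33% in all 7 days peaks.

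Among strongly bound pairs the TEAD letters were common throughout, and the AP-1 letters were more frequent in the highest than in the lowest decile. In the top 10% of either list, TEAD letters stood in 54.2% of the lowest and 62.8% of the highest decile of relative pileup, a difference of 8.66 points (2.35 to 14.9), and the deciles between ran from 55.6% to 60.9% with no steady course. AP-1 letters stood in 4.90% and 14.7%, a difference of 9.84 points (6.09 to 13.7). When only pairs changed at least 2-fold were compared, of which 28 were lower, the difference of 12.01 points had an interval of -2.39 to 16.3, which holds 0. GC content fell from 50.4% to 46.3% over the same deciles, and the median 7 days percentile went from 81.8 to 95.5. Strength at 7 days and change therefore cannot be told apart here either. The part of GC content in these differences was not tested among strongly bound pairs. Over all pairs, rising pairs held the AP-1 letters more often than falling pairs by 5.96 points (4.72 to 7.23), and by 5.59 (3.27 to 7.96) in windows of 45% to 50% GC. A match is a stretch of letters and does not show that the factor was bound.

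**Figure D4:**
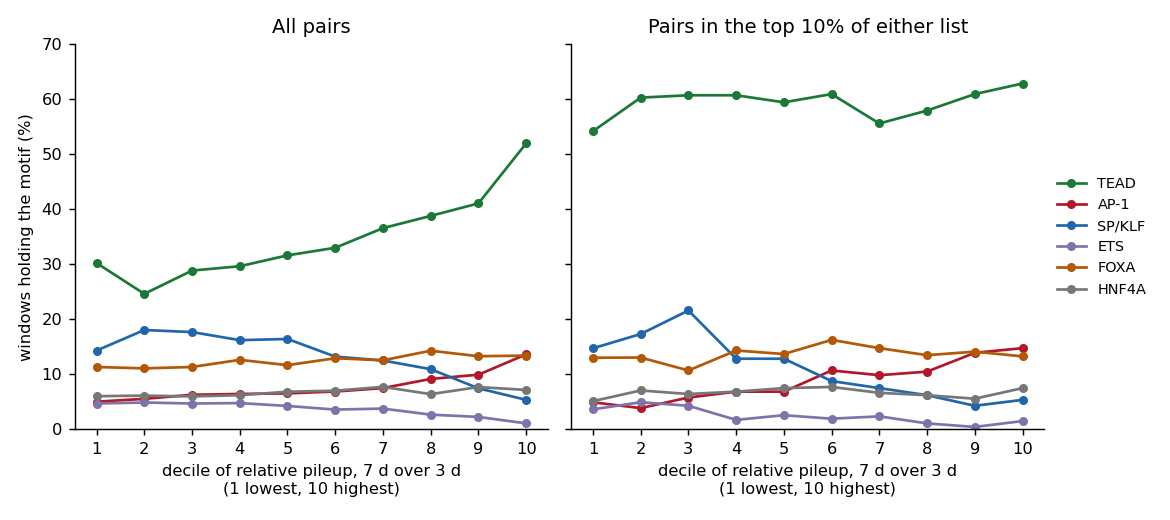
Share of 200-base windows around the 7 days summit that hold each motif, by decile of relative pileup, for all pairs (left) and for pairs in the top 10% of either list (right). TEAD letters climb from 30.2% to 51.9% among all pairs and stay between 54.2% and 62.8% at the right, while AP-1 letters climb in both panels and SP/KLF letters decline.

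Pairs were next grouped by gene lists through the nearest start within 100 kb. Counts of pairs within a list share genes and loci, so the intervals are too narrow as a measure of genes. Pairs near the canonical YAP-TEAD targets rose in 19 of 110 cases (17.3%, interval 11.3 to 25.4) and fell in 12 (10.9%), beside 12.6% and 15.8% over all pairs, with a median change of 1.23 points against -1.53. Of the 110, 26 had an interval above 1 (23.6%) and 4 below (3.64%), beside 12% and 4.43% over all pairs. Amotl2, which encodes an angiomotin family regulator of YAP, held the largest rise, with 27 and then 53 fragments in an exon. F3, the coagulation tissue factor, held the largest fall, with 44 and then 23 at 506 bp upstream of its start. For Ankrd1 and Tgfb2, 2 of 2 and 2 of 3 pairs rose. The TEAD and VGLL family had 3 rising and 4 falling of 32, a median of 0.46 points, and 9 intervals above 1 (28.1%) with 0 below. Median percentiles of the canonical targets and of this family were 66.4 and 66.3 at 3 days, against 62.3 over all pairs. At 7 days they were 72.7 and 74.7, against 60.3. Strongly bound pairs more often had intervals above 1, and the part of strength was not tested. The largest rise of the family, in an intron of the TEAD cofactor gene Vgll3, was from 29 to 61, and the largest fall, at the start of Vgll4, was from 31 to 22 with an interval that holds 1.

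Pairs near biliary and progenitor genes rose more often than they fell, 13 and 4 of 61 (21.3%, interval 12.9 to 33.1, and 6.56%, interval 2.58 to 15.7), with a median of 2.07 points. Their largest rise lay 2274 bp upstream of Afp, the fetal counterpart of albumin, which went from 27 to 80 fragments, a relative pileup of 3.17 (2.03 to 5.11). Hes1 supplied 5 of the 13 rises. Their largest fall, near the keratin gene Krt18, was from 40 to 24, with an interval that holds 1. AP-1 genes had 8 rising and 6 falling of 30 (26.7% and 20%, beside 12.6% and 15.8% over all pairs), with a median of -0.31 points. Fos supplied 4 of the rises, the largest from 24 to 47 at 11002 bp downstream of its start. Only 4 of the 30 had an interval above 1 (13.3%), near the 12% of all pairs. The largest fall of that list was near Maff, with 50 and then 24 in an intron of Tmem184b. Chemokine and cytokine genes had 5 rising and 1 falling of 32, and 11 intervals above 1 (34.4%, beside 12% of all pairs). A site 15025 bp upstream of Cxcl1, a neutrophil chemokine, went from 26 to 72. One near the NF-kappaB inhibitor gene Nfkbia went from 36 to 23, with an interval that holds 1.

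The hepatocyte gene lists held more falling than rising pairs, as did all pairs when ranked within the whole lists. Pairs near metabolic enzyme genes rose in 10 and fell in 26 of 125 (8%, interval 4.40 to 14.1, and 20.8%, interval 14.6 to 28.7), with a median of -6.19 points. Of their intervals, 4 (3.20%) lay above 1 and 10 (8%) below. The largest rise was in an intron of Tat, the tyrosine aminotransferase, with 25 and then 31, whose interval holds 1. Both pairs near the cytochrome P450 gene Cyp1a2 fell. Secreted protein genes had 14 rising and 22 falling of 116, a median of -2.37 points. On the counting intervals this turned, with 11 (9.48%) above 1 and 4 (3.45%) below. The largest rise was the Afp site above, since Afp is on both lists, and the largest fall was 25912 bp downstream of the start of Apob, the apolipoprotein of VLDL, with 50 and then 25. The transcription factor genes had 10 rising and 16 falling of 131, but 15 intervals (11.5%) above 1 and 5 (3.82%) below. Over all pairs the shares were 12% above and 4.43% below. An intron of Nr1i2, which encodes the xenobiotic receptor PXR, had 52 and then 22, and an intron of Onecut1, a factor of hepatobiliary development, 23 and then 41.

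Cell cycle genes had 6 rising and 3 falling of 52 (11.5% and 5.77%, beside 12.6% and 15.8% over all pairs), with a median of -0.10 points. A site at the start of Ccnb1, the mitotic cyclin B1 gene, went from 23 to 42. One near Ccne1 went from 30 to 19, with an interval that holds 1. Matrix and adhesion genes had 10 rising and 12 falling of 88 (11.4% and 13.6%), and Col4a2 supplied 4 of the falls. The largest rise was in an intron of Vcl, the vinculin gene, with 28 and then 52. Of the intervals, 20 (22.7%) lay above 1 and 4 (4.55%) below, beside 12% and 4.43% over all pairs. The median percentile of this list at 3 days was 76.5, against 62.3 over all pairs. Intervals lay above 1 more often among strongly bound pairs, and the part of strength was not tested.

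Marker genes of other liver cells had few pairs. The lists hold no RNA, so the tissue was checked by position only. Pairs were found near 19 of 20 hepatocyte transcription factor genes, 27 of 28 secreted protein genes and 34 of 36 enzyme genes, against 6 of 12 endothelial, 3 of 13 macrophage and 4 of 9 stellate cell markers. In all, 10458 protein-coding genes were nearest to a pair, and the share of all such genes that this makes was not computed. These counts therefore do not measure how much the other cells contributed. The endothelial markers had 3 rising and 1 falling of 9 pairs, the macrophage markers 3 and 1 of 6, and the stellate markers 1 and 0 of 4. Their largest rises were 25 and then 33 fragments in an intron of Eng, 28 and then 40 near Itgam, and 28 and then 41 near Des. Their largest falls were 74 and then 32 near Stab2, 45 and then 28 in an exon of Csf1r, and 54 and then 43 near Reln. Of the intervals, 1 endothelial, 1 macrophage and 0 stellate lay above 1, and 1, 0 and 0 below. The changes given for Eng, Itgam, Csf1r, Des and Reln lie within counting error, so the intervals above 1 belong to other pairs of these lists.

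**Figure D5:**
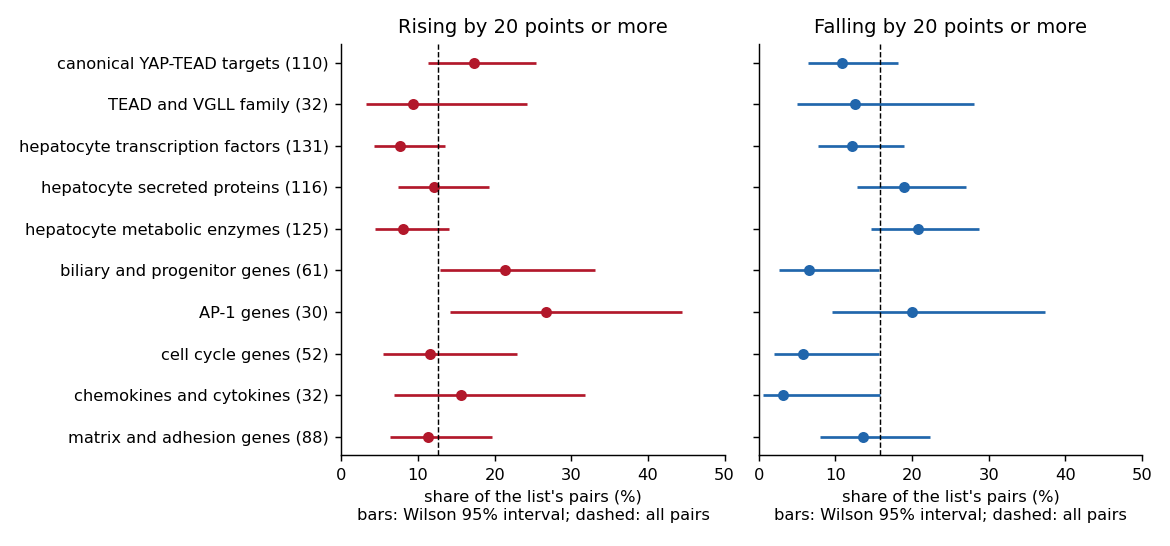
Share of pairs near the genes of each list that rose (left) or fell (right) by at least 20 percentile points, with Wilson 95% intervals and the number of pairs in parentheses; dashed lines give 12.6% and 15.8% over all pairs. Biliary and AP-1 gene pairs rose in 21.3% and 26.7%, and metabolic enzyme pairs fell in 20.8%, and most intervals hold the dashed line.

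Peaks without a partner were the weaker ones. At 3 days 8799 peaks (24.1%) overlapped no 7 days peak and had a median percentile of 20.8; just 5 reached the top 10% of that list. At 7 days 11231 peaks (28.8%) overlapped no 3 days peak, with a median percentile of 31.2, and 220 were in the top 10%. A further 511 and 617 peaks overlapped but were not each other's best match. The X chromosome held 363 peaks (0.996%) at 3 days and 616 (1.58%) at 7 days. Of its 306 pairs, 21.6% rose (17.3 to 26.5), beside 12.5% on the numbered chromosomes, and their median relative pileup was 1.04; the sex of the animals is not given in the labels, and its part was not tested.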

How the data were processed

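TEAD ChIP-seq of whole liver was analysed at 3 days (3 libraries) and 7 days (4 libraries) of induction, with groups taken from the sample labels. The authors aligned reads to mm9 with BWA 0.6.2, merged the replicates and removed duplicates, and called peaks with MACS2 2.0.9 at a p-value of 1e-05 against a control of 167176362 tags, per the file headers and the labels. The deposited pileup is a signal, the coverage of each summit in extended fragments (207 and 206 bp). The deposited fold enrichment is a ratio of pileup to local background. The p-value and q-value of each peak were deposited as −log10 values from that caller. Peak positions were used as deposited.

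Here, peaks were paired by mutual best overlap of at least 1 bp, and percentiles were taken within each whole list with ties averaged. Python 3.11.15, pandas 2.3.3, NumPy 2.4.6, SciPy 1.17.1 and matplotlib 3.10.9 were used. All 36420 and 38946 peaks on the numbered chromosomes and X ended within their namesakes in the NCBIM37 (mm9) assembly, whose GENCODE annotation and sequence were used. Shares have Wilson intervals, differences Newcombe intervals and relative pileups exact binomial intervals, all at 95%. These cover counting error only. Pairing and ranking were tested on simulated data.

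Genes named were the 12 largest rises and 12 largest falls among pairs of percentile 90 or more in at least 1 list, within 100 kb of a protein-coding start. Added to these were the 6 highest and 6 lowest genes with at least 4 pairs by median change, and the extreme pairs of each of 13 gene lists with at least 3 pairs. Nedd9, Fos and Hes1 as loci, the genes given with counts alone and the AP-1 comparison were added after their values were seen. The members and lists were chosen with earlier results of these data known. Alternatives covered the rank measure, the overlap, the peaks kept, the promoter and motif windows and strata of mean percentile. The YAP lists of WT livers and of 3 days were not used here. A few pairs that meet this naming rule are not reported here by gene, though they remain in the counts and ranges.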

Additional observations from a re-analysis of the deposited data

How the results depend on the processing

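No paired analysis was possible because libraries of a group were merged before peaks were called, and leaving out a replicate could not be run for the same reason. Of 80 recomputed values, 62 stayed within the interval of the main value (for counts, within 1.5 times it), 16 moved beyond it in the same direction and 2 turned. Requiring a 2-fold relative pileup instead of 20 points cut rising pairs to 1026 and falling pairs to 199. It changed the rising share at promoters against elsewhere to -3.41 points, at WT TEAD peaks to -3.02 and at YAP peaks to 15.5, the last with its sign turned. It changed the difference between rising and falling pairs to 21.2 points for TEAD letters and 11.96 for AP-1 letters. Within deciles of mean percentile the difference was -7.37 points at WT TEAD peaks and, turned, 28.5 at YAP peaks. Neither of these values has an interval, and the deciles themselves use the 7 days values. With ranks among paired peaks only, the promoter and WT differences were -6.52 and -14.1 points, and with a −log10 p-value of at least 10 they were -6.18 and -15.0. Equally long lists gave -12.1 points at WT TEAD peaks. A window of 100 bases gave 3.71 points for AP-1 letters. Away from promoters, TEAD letters differed by 9.91 points. Among top 10% pairs with a 2-fold change the differences were 8.59 points for TEAD (-8.78 to 26.8) and 12.01 for AP-1 letters (-2.39 to 16.3), and both intervals hold 0. The GC, position and top 10% settings, the choice of strongly bound pairs by the 3 days list alone and all AP-1 values were added after seeing the data. The 24 named pairs kept their direction when ranked by fold enrichment or −log10 p-value, with changes of 31.2 to 92.8 points in size. The cause of these shifts was not tested, beyond the ceiling of percentiles at sites already near 100.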
